A study of Mus musculus with 4 samples.

Results

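Monocytes and resident macrophages, the ends of the colonic macrophage pool, were compared in chow-fed mice in single-cell RNA-sequencing data from the colon lamina propria. Cells were placed in a class by the summed UMIs (unique molecular identifiers, each standing for a captured mRNA molecule) of 10 genes, expressed per 10000 UMIs of the cell. M was the sum of the MHC class II genes H2-Aa, H2-Ab1, H2-Eb1 and Cd74, C the sum of the complement genes C1qa, C1qb and C1qc, and P the sum of Ly6c2, Plac8 and Chil3. Monocytes had P of at least 50, M under 200 and C under 120, and resident macrophages had C of at least 120 and no Ly6c2 UMI. Of 5420 cells in the series, 2906 came from chow-fed mice, and 2419 of these fell into a class: 181 monocytes and 2238 resident macrophages. The other 487 cells fell into neither.

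The mice were male C57/Bl6N animals of 6 to 7 weeks that received chow (2 mice, Chow 9 and Chow 11) or a coconut-based high-fat diet, HFD (2 mice, HFD 1 and HFD 3), for 1 week. Apart from the diet, no allele or agent is named for any group. Live CD45+Lin-CD11b+CD24- cells positive for Ly6C or CD64 were sorted, and the cells of each mouse filled 1 well of a droplet device, so that mouse and library cannot be told apart. HFD mice were used to see whether differences found on chow were present in mice that had no part in them, and to test whether the difference between the classes depended on diet.

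Macrophages of the colon lamina propria are renewed from blood monocytes that carry the surface protein Ly6C and reach the mucosa by means of the receptor CCR2. In the tissue these cells are known to lose Ly6C, to gain MHC class II and then to take on the traits of long-lived residents, among them the fractalkine receptor CX3CR1, complement C1q, scavenger receptors and interleukin-10. Residents clear dying epithelial cells and bacteria, whereas freshly arrived monocytes carry the adhesion, antimicrobial and interferon-response genes of the blood stage.

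Chow 9 gave 86 monocytes and 640 resident macrophages, and Chow 11 gave 95 and 1598. Monocytes made up 9.51% of the cells of Chow 9 (95% Clopper-Pearson interval 7.68 to 11.6%, counting error only) and 4.75% of Chow 11 (3.86 to 5.77%), and resident macrophages 70.8% (67.7 to 73.7%) and 79.8%. The sort for Ly6C or CD64 and the gates set these shares. The gating values are a description, since they chose the cells: median M was 26.7 and 57.7 in monocytes against 998 and 989 in resident macrophages, median C was 2.95 and 11.7 against 199 and 204, and median P was 132 and 155 against 0 and 0, for Chow 9 and Chow 11 in this order, which is kept below. At the edge of the monocyte class the nearest cells had P of 49.96 outside and 50.68 inside, and M of 174.1 inside and 202.6 outside. C was not what separated monocytes, because the highest C of any cell past the other gates was 46.2. The edge of the resident class ran through a denser region, with cells at 119.7 outside and at the threshold itself inside, 110 cells within 20% below the threshold and 198 within 20% above it.

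**Figure D1:**
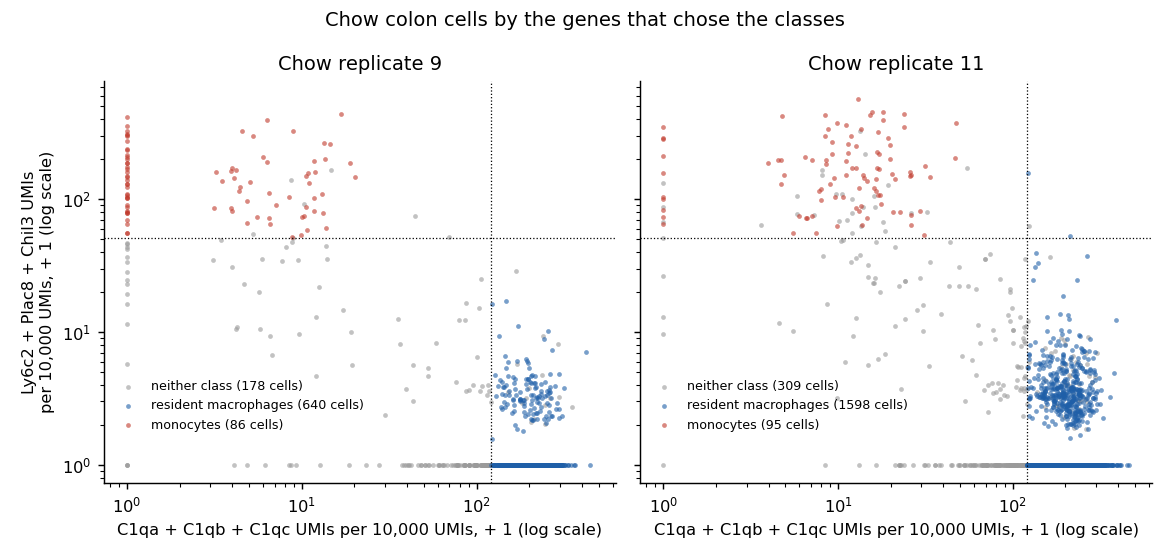
Summed C1q (horizontal axis) against summed Ly6c2, Plac8 and Chil3 (vertical axis), both in UMIs per 10000 UMIs of a cell, for each cell of Chow 9 and Chow 11; colours mark the class and dotted lines the thresholds. The 181 monocytes lie at C of 46.2 or less. Of the 487 cells of neither class, 72 lie at C of at least 120 with a Ly6c2 UMI, and the others lie under that threshold.

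Monocytes held less RNA than resident macrophages as captured, with a median of 2575.5 and 2874 UMIs per cell against 4340.0 and 4022.5. At equal depth the order of complexity was the other way: thinned to 2000 UMIs, which left out 26 of the 86 monocytes of Chow 9, a monocyte showed a median of 831 and 842.5 genes and a resident macrophage 740.0 and 765. Unthinned, the medians of Chow 9 were 954 and 1200.0 genes. Summed over cells, monocytes gave 229568 and 281560 UMIs and resident macrophages 2976954 and 6672760. In the summed data a UMI was worth 4.02 and 3.39 CPM (counts per 1000000, scaled for composition) in monocytes and 0.359 and 0.159 CPM in resident macrophages, so that low values are far coarser in monocytes. A doublet caller marked 41 cells of the series (0.757%), 0 of them monocytes and 10 resident macrophages of the chow mice. Of 5397 barcodes, 23 occurred in more than 1 library and 3 in both chow libraries.

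A single cell of the monocyte class of Chow 11 stood apart. It held 14299 UMIs, 4.98 times the median of its class and 5.08% of the UMIs of that class, with 2924 of Jchain and 4742 of Igha, the joining and heavy chains of secreted immunoglobulin that plasma cells make. It also held 70 Ly6c2 UMIs but 0 of Chil3, and its P of 53.15 was the lowest of the class in that mouse. Jchain was at 177 and 10051 CPM in monocytes and at 155 and 204 CPM in resident macrophages, and 98.6% of the Jchain UMIs of the monocytes of Chow 11 lay in this cell. Counts below are therefore also given without the cell, a removal chosen after its values were seen.

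By summed level, the markers given here from outside the gate lay on the side of both names for all but Ly6c1 and Fcgr1. Ccr2, which encodes the receptor for monocyte entry into tissue, was at 546 and 864 CPM in monocytes and 197 and 273 CPM in resident macrophages, and a UMI was found in 60.5% and 74.7% of monocytes against 27.7% and 34.5% of resident macrophages. Both monocyte values of Ccr2 lay above both resident values, which were themselves well above the worth of a UMI. S100a4, a calcium-binding protein of motile cells, was at 1061 and 1068 against 29.1 and 42.4 CPM. The matrix proteoglycan gene Vcan was at 125 and 94.9 against 0 and 0.797 CPM and the transglutaminase gene F13a1 at 32.1 and 16.9 against 5.02 and 10.0 CPM. F13a1 was found in only 5 and 4 monocytes, 5.81% and 4.21%, against 1.41% and 3.07% of resident macrophages. In Chow 11 the 95% intervals were 1.16 to 10.4% and 2.28 to 4.03%, and those of Chow 9 overlapped too. Ly6c1 gave 2 UMIs in monocytes and 0 in resident macrophages and marked neither. Of the resident markers, Adgre1 (the F4/80 antigen) was at 189 and 251 CPM in monocytes and 759.9 and 762 CPM in resident macrophages and Cx3cr1 at 177 and 203 against 542 and 564 CPM. The mannose receptor gene Mrc1 was at 4.02 and 16.9 against 310.4 and 396 CPM. Mrc1 was found in 51.2% and 60.9% of resident macrophages and 1.16% and 5.26% of monocytes. The haemoglobin scavenger gene Cd163 had 0 UMIs in monocytes and 228 in resident macrophages, and the engulfment receptor gene Mertk had 1 and 330. The exception was Fcgr1, which encodes CD64, an antigen of the sort: it was at 173 and 197 CPM in monocytes and 148 and 216 CPM in resident macrophages (log2 difference 0.03 ± 0.21, SE).

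Summed counts of both classes were compared across genes within mouse (edgeR quasi-likelihood test, Benjamini-Hochberg adjusted p under 0.01, n = 2 mice per class, gating genes left out). Of 5052 genes tested, 390 (7.72%) were higher and 456 (9.03%) lower in monocytes, 846 (16.7%) in all, and the median log2 difference of all genes tested was -0.03. Every called gene had the same direction in both mice, as had 72.5% of all genes tested. Of the lower genes 37 had no UMI in any monocyte. Since the same cells were chosen on 10 genes, these p-values do not test the classes themselves. They set a difference against a spread drawn mostly from all genes, with prior degrees of freedom of 18.57 beside 1 residual degree of freedom. A small p is thus no measure of how alike a gene's difference was in both mice. For 162 called genes the log2 difference varied by more than 1 between mice. Only 2 mice stand behind each p-value, so that an exact paired permutation test could not go below p = 0.5.

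Without the immunoglobulin-rich cell, 593 of 5051 genes passed, 296 higher (5.86%) and 297 lower (5.88%), of which 591 were among the 846. The prior degrees of freedom of that fit were 7.844 against 18.57 with the cell. Genes with an unadjusted p under 0.05 in edgeR's quasi-likelihood test numbered 1799 without the cell and 1844 with it. A call lost without the cell therefore need not mean that the difference rested on it, and the part of the changed spread was not tested. DESeq2 called 380 genes (191 higher, 189 lower), stricter gates gave 387 (199 and 188), and a fit without mouse as a block 491 (211 and 280). Scaled by library size alone, 423 genes were higher and 274 lower. Monocytes were 7.48% of the classed cells, so that asking for a UMI in 5% of both classes together passed only 31 of the 271 genes that reached 5% in monocytes alone, against 1258 of 1319 for resident macrophages, and genes restricted to monocytes are therefore under-represented among those tested. With the filter asked of either class, chosen once these values were known, 430 of 5353 genes (8.03%) were higher and 429 (8.01%) lower. Of 197 called genes named by rule, 114 kept their call in each of the 17 other settings apart from a fit without any filter on low counts, in which no gene passed the adjusted threshold and 2248 of 11758 had an unadjusted p under 0.05. For a called gene given below that lost its call in some of these settings, their number is stated.

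Several of the genes that led in monocytes are known from the blood stage. Hp (chr8:109575128-109579172, GRCm38), which encodes the haemoglobin binder haptoglobin, was at 864 and 779.7 CPM in monocytes and 2.51 and 3.51 CPM in resident macrophages, a log2 difference of 8.01 ± 0.25 (SE, adjusted p = 5.4e-15). Ifitm6 (chr7:141015699-141017924), of the interferon-induced transmembrane family, was at 1503 and 976 against 10.4 and 9.24 CPM (log2 difference 6.92 ± 0.21), and its relative Ifitm3, which restricts virus entry, at 8734 and 7461 against 346 and 542 CPM (4.22 ± 0.19). Fn1 (chr1:71585520-71653200), encoding the matrix protein fibronectin, was at 655 and 488 against 5.74 and 14.7 CPM (5.77 ± 0.31). For each of these genes both monocyte sums lay above both resident sums. Mcemp1, a membrane protein named for its presence in mast cells, was at 366 and 431 against 6.1 and 8.93 CPM (5.71 ± 0.26). Clec4e, which encodes the receptor Mincle for mycobacterial glycolipids, was at 779 and 1061 against 25.5 and 58.3 CPM (4.53 ± 0.21). Mgst1, a microsomal glutathione transferase, was at 828 and 708 against 36.2 and 33.0 CPM (4.47 ± 0.19). Slc16a3, encoding the lactate exporter MCT4, was at 177 and 173 against 9.69 and 9.24 CPM (4.20 ± 0.34). Of the 15 genes with the largest rise among those tested, the remaining 7 were S100a4, Irf7, Sirpb1c, Ms4a4c, Gda, S100a6 and Itgb7, with log2 differences from 3.86 for the integrin subunit gene Itgb7 to 4.91 for S100a4.

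**Figure D2:**
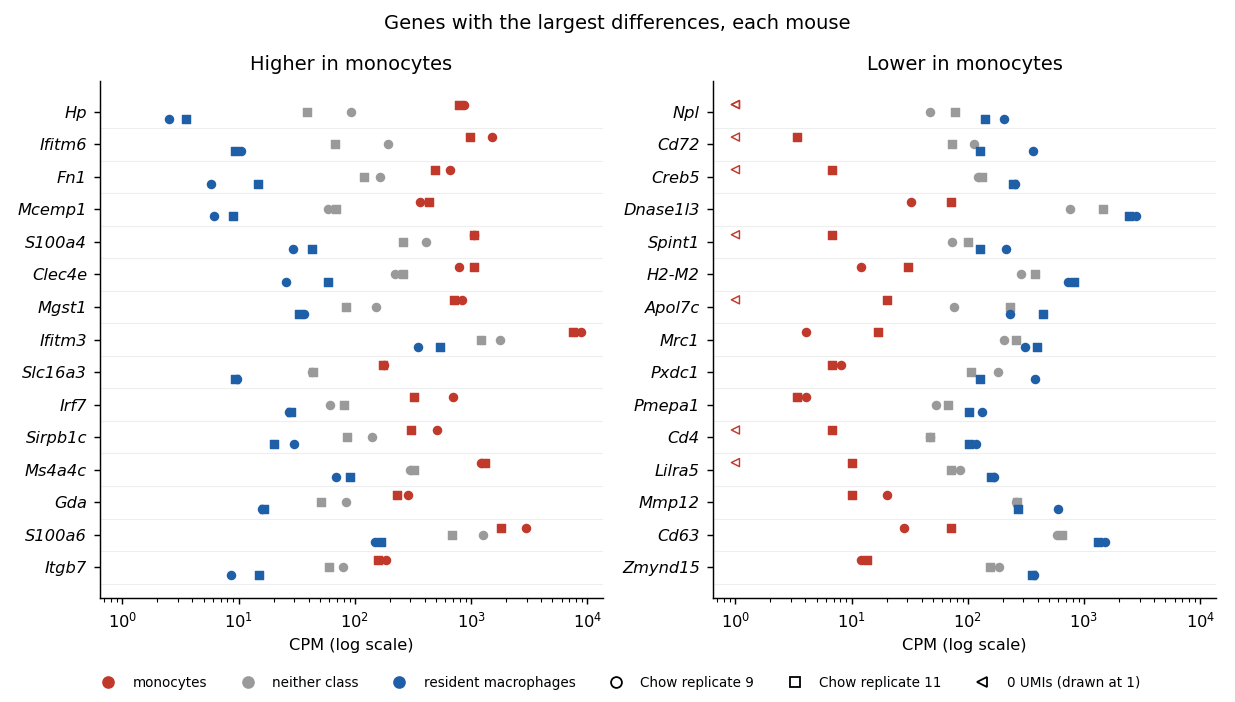
CPM (horizontal log axis) of the 15 genes with the largest rise and the 15 with the largest fall in monocytes among called genes with at least 100 CPM in both mice in the higher class, genes under the detection filter being left out; each point is 1 mouse and class (cells of neither class in grey), and sums without a UMI are drawn at 1. In each gene the monocyte and resident points of both mice lie apart, as for Hp at 864 and 779.7 against 2.51 and 3.51 CPM.

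Resident macrophages had their own set of genes with few or no monocyte UMIs. Npl (chr1:153503015-153550045), encoding the sialic acid lyase, had 0 UMIs in monocytes and 1460 in resident macrophages (206 and 141 CPM) and was at least 29.2-fold lower against a floor of 3 UMIs over both mice (call lost in 1 setting, DESeq2). Cd72, an inhibitory receptor of the C-type lectin fold, had 1 UMI against 1817, a ratio of monocyte to resident level of 0.00917 (95% counting interval 0.00023 to 0.051). Cd4, the T cell co-receptor that long-lived gut macrophages also carry, had 2 UMIs against 966 (ratio 0.0345, 0.0042 to 0.12) and was found in 29.5% and 24.0% of resident macrophages. Dnase1l3 (chr14:7964533-7994573), a secreted nuclease that digests DNA of dying cells, was at 32.1 and 71.2 CPM in monocytes and 2782 and 2453 CPM in resident macrophages (log2 difference -5.65 ± 0.24, adjusted p = 8.2e-13). Mrc1 had a log2 difference of -5.04 ± 0.33. Cd63, a tetraspanin of late endosomes, was at 28.1 and 71.2 against 1518 and 1309 CPM (-4.82 ± 0.26). The macrophage elastase gene Mmp12 was at 20.1 and 10.2 against 598 and 268 CPM (-4.82 ± 0.28). The resident level of Mmp12 was higher in Chow 9 than in Chow 11, and both lay above either monocyte value. H2-M2, a non-classical MHC class I gene, differed by -5.17 ± 0.24, Apol7c by -5.04 ± 0.39, Pxdc1 by -5.00 ± 0.38 and Zmynd15 by -4.81 ± 0.30. Creb5, Spint1, Pmepa1 and Lilra5, the others of the 15, had 2, 2, 2 and 3 monocyte UMIs.

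Free RNA can set a floor under such ratios. C1q counted in monocytes was 1.77% of the resident level in Chow 9 and 5.63% in Chow 11, and Plac8 with Chil3 in resident macrophages was 0.432% and 0.754% of the monocyte level. All of these are gating genes, so that their ratios set no bound for other genes, and the part of free RNA in residual levels was not tested.

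Genes known from blood monocytes were mostly higher, beside 7.72% of all genes. Of 31 in the files, 18 were tested, and 16 rose and none fell with or without the immunoglobulin-rich cell (median log2 difference 3.47). Lyz2, the lysozyme gene, was at 66419.6 and 71724 CPM in monocytes and 22393 and 26181 CPM in resident macrophages (1.51 ± 0.16). S100a6 was at 2957 and 1803 against 149 and 167 CPM and Ms4a4c at 1209 and 1312 against 68.9 and 90.7 CPM. Msrb1, a methionine sulfoxide reductase, was at 1318 and 1136 against 168 and 127 CPM. The integrin gene Itga4 and Tgfbi did not pass.

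Of 36 tested genes of adhesion and migration 15 rose and 12 fell (14 and 11 without the cell; median 0.50). Of all genes tested 7.72% rose and 9.03% fell (5.86% and 5.88% without the cell). Among the 15 that rose, Itgb7 was at 185 and 159 against 8.61 and 14.8 CPM, Coro1a, which encodes the actin-binding protein coronin, at 2206 and 2119 against 710.0 and 714 CPM (1.60 ± 0.15), and Anxa2, an annexin of the membrane, at 1406 and 1214 against 122 and 168 CPM (3.19 ± 0.18). S100a10, its binding partner, was at 1418 and 1397 against 204 and 331 CPM (2.43 ± 0.18). Among the 12 that fell, the matrix protease gene Mmp13 was at 20.1 and 44.1 against 847 and 764 CPM (-4.62 ± 0.23) and the adhesion receptor gene Vcam1 at 8.04 and 23.7 against 307 and 271 CPM (-4.13 ± 0.30). Itgax, which encodes CD11c, was at 12.1 and 10.2 against 149.6 and 112 CPM (-3.54 ± 0.40). Among 12 tested receptors for chemokines and other chemoattractants, 3 rose and 7 fell (3 and 4 without the cell, and 3 and 3 scaled by library size alone). Ccr2 rose by 1.57 ± 0.17 and Ltb4r1, the leukotriene B4 receptor of phagocytes, was at 153 and 153 against 11.8 and 14.3 CPM (3.53 ± 0.34). In the other direction Cx3cr1 differed by -1.54 ± 0.18, and the anaphylatoxin receptor genes C3ar1, at 8.04 and 44.1 against 636 and 578 CPM, by -4.51 ± 0.24 and C5ar1 by -2.48 ± 0.21.

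Of 38 type I interferon response genes in the files 22 were tested, and 15 rose in monocytes of chow-fed mice and none fell with or without the immunoglobulin-rich cell (median 1.53). The shares over all genes tested were 7.72% higher and 9.03% lower (5.86% and 5.88% without the cell). Irf7 (chr7:141262706-141266481), the factor that amplifies interferon production, was at 695 and 325 CPM in monocytes and 27.3 and 28.1 CPM in resident macrophages (4.09 ± 0.25). The monocytes of Chow 9 held more Irf7 than those of Chow 11, and both lay above the residents. Ifi27l2a, an interferon-induced mitochondrial protein, was at 2784 and 2231 against 428 and 539.8 CPM (2.37 ± 0.17). Samhd1, which depletes nucleotides that viruses need, was at 844 and 732 against 108 and 119.9 CPM (2.78 ± 0.18). The nucleic acid sensors Ifi209 and Ifi204 rose by 2.81 ± 0.27 and 1.75 ± 0.20, and Trim30a by 1.34 ± 0.23 (call lost in 1 setting). Of 15 tested genes raised by interferon-gamma 1 rose and 4 fell (median 0.09; 1 and 3 without the cell, when the median was -0.17).

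The letters GAAANNGAAA, the core of the element to which interferon factors bind, were searched on both strands of RefSeq promoter windows (GRCm38.p6, 250 bases before to 50 after a start site). Of the 15 risen interferon genes 10 matched a window by symbol and 5 of these (50%) held the letters, as did 9 of 16 tested interferon genes (56.3%), 9.39% of 309 genes higher in monocytes, 6.84% of 351 lower ones, 4.49% of 4032 genes tested and 3.99% of all 27025 genes with a window. For each of the 5 genes the match nearest the start site is shown with 8 bases on either side, as read on the strand of the gene; capitals mark the searched letters, which read TTTCNNTTTC where the match is on the opposite strand. A match describes the window and is not a binding site. The 3 matches of Isg15 and the 2 of Oas1a overlap within their windows, and Trim30a has 2 windows with a match in each.
Isg15, chr4:156200867-156200892 (minus strand): aggaaaccGAAACAGAAAatagctct
Ifit3, chr19:34583399-34583424 (plus strand): taagtctgTTTCAGTTTCtactttcc
Oas1a, chr5:120907522-120907547 (minus strand): gggaaatgGAAACTGAAAatctactt
Phf11b, chr14:59341363-59341388 (minus strand): catttagaGAAAAAGAAActagaaac
Trim30a, chr7:104446106-104446131 (minus strand): gtttttagTTTCTTTTTCtcagttcc
In the summed counts Isg15, a ubiquitin-like modifier, was at 108 and 153 CPM in monocytes and 39.5 and 56.3 CPM in resident macrophages, Ifit3 at 201 and 84.7 against 14 and 27.4 CPM, and Oas1a, a sensor of double-stranded RNA, at 125 and 64.4 against 33.7 and 22.2 CPM. Phf11b was at 197 and 108 against 47.4 and 48.0 CPM. Chosen for their windows and not by the naming rule, Isg15, Ifit3, Oas1a and Phf11b rose by 1.45 ± 0.29, 2.72 ± 0.42, 1.72 ± 0.34 and 1.63 ± 0.30. The call was lost in 2 settings for Isg15, in 3 for Oas1a and in 1 for Phf11b, among them the fit without Chow 9 for Oas1a and Phf11b.

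Of 12 tested genes of the NADPH oxidase and antimicrobial proteins 5 rose and none fell with or without the cell (median 0.73). Of all genes tested 7.72% rose and 9.03% fell (5.86% and 5.88% without the cell). Among the 5 were Lyz2, Hp and the oxidase partner Rac2 (0.86 ± 0.16). Of 27 tested genes of pattern recognition 7 rose and 6 fell (6 and 4 without the cell, 9 and 3 scaled by library size alone). Tlr2, the receptor for bacterial lipoproteins, was at 490.1 and 620.4 CPM in monocytes and 178 and 225 CPM in resident macrophages (1.46 ± 0.17). Clec12a, a receptor for uric acid crystals, was at 241 and 271 against 70.7 and 68.2 CPM (1.88 ± 0.22). Tlr1, whose product pairs with that of Tlr2, was in contrast without a monocyte UMI and at 24.8 and 28.7 CPM in resident macrophages, at least 4.98-fold lower (call lost in 3 settings). Among enzymes of lipid mediators, 2 of 14 rose and 7 fell (2 and 5 without the cell; median -1.23). Alox5ap, which presents arachidonate for leukotriene synthesis, was at 1796 and 1783 against 124 and 193 CPM (3.53 ± 0.18). Ptgs1, encoding cyclooxygenase-1, was at 12.1 and 27.1 against 373 and 321 CPM (-4.10 ± 0.28), the prostaglandin D synthase gene Hpgds differed by -4.39 ± 0.29, the thromboxane synthase gene Tbxas1 by -2.96 ± 0.32 and the leukotriene C4 synthase gene Ltc4s by -2.84 ± 0.35.

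**Figure D3:**
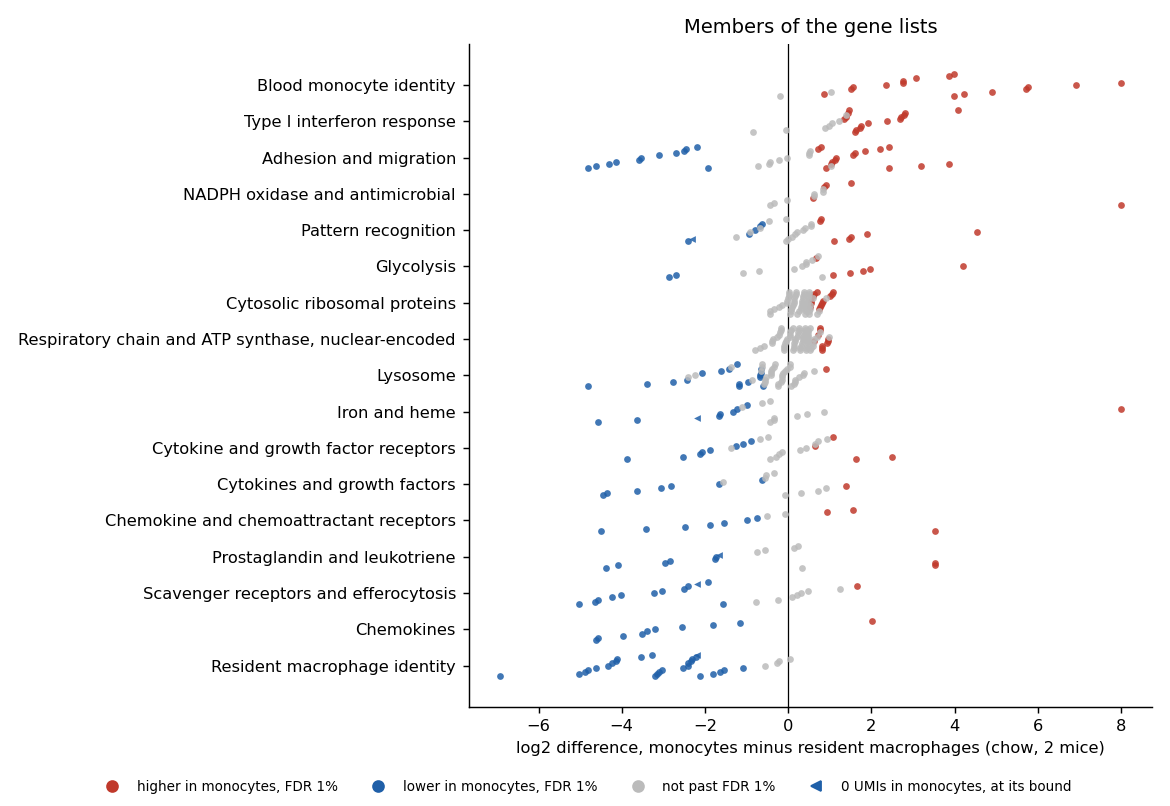
Log2 difference between monocytes and resident macrophages (horizontal axis, positive where higher in monocytes) of the tested members of 17 gene lists; coloured points passed the test, and triangles are members without a monocyte UMI, drawn at the bound set by 3 UMIs. The lists of blood monocyte identity (16 of 18 higher) and of the type I interferon response (15 of 22 higher) lie to the right, and those of resident identity (27 of 31 lower) and chemokines (9 of 10 lower) to the left.

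Of 31 tested resident identity genes 27 fell in monocytes (26 without the immunoglobulin-rich cell) and none rose, beside 9.03% of all genes tested that fell (5.88% without the cell). Their median log2 difference was -3.04, or -2.53 with genes of no monocyte UMI at their bound. Pf4, a chemokine of the platelet factor kind, was at 68.3 and 129 CPM in monocytes and 2512 and 2317 CPM in resident macrophages (-4.62 ± 0.22). Ms4a7 was at 173 and 186 against 4033 and 3242 CPM (-4.33 ± 0.18) and Cd81 at 153 and 302 against 3575 and 3983 CPM (-4.10 ± 0.19). Apoe, the lipid carrier, was at 5564 and 10129 against 68473 and 64173 CPM (-3.14 ± 0.21). The part of free RNA in the Apoe level of monocytes was not tested. Smaller differences were seen for Adgre1 (-1.80 ± 0.18), Aif1 (-2.40 ± 0.16) and the growth factor receptor gene Csf1r (-1.09 ± 0.16). Cd163, without a monocyte UMI, was at least 4.56-fold lower (call lost in 5 settings). Among these was the fit without the immunoglobulin-rich cell, although that cell held no Cd163 UMI. Mertk had a ratio of 0.0505 (0.0013 to 0.28, call lost in 4 settings).

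Of 20 tested scavenger and efferocytosis genes 12 fell and 1 rose (11 and 1 without the cell, median -2.16). Among all genes tested, 9.03% fell and 7.72% rose (5.88% and 5.86% without the cell). Axl, a receptor for phosphatidylserine on dying cells through its ligand Gas6, was at 24.1 and 27.1 CPM in monocytes and 247 and 237 CPM in resident macrophages (-3.23 ± 0.29), and the endocytic adaptor gene Dab2 at 32.1 and 37.3 against 498 and 631 CPM (-4.02 ± 0.23). Fcrls was at 4.02 and 27.1 against 398 and 404 CPM (-4.64 ± 0.28). Of 53 lysosomal genes 16 fell and 1 rose (11 and 0 without the cell, 8 and 2 scaled by library size alone; median -0.53), with Lgmn, the asparagine protease legumain, at 542 and 763 against 3866 and 3115 CPM (-2.42 ± 0.18) and the cathepsin genes Ctsb and Ctsc differing by -1.17 ± 0.14 and -1.22 ± 0.15. Of 18 iron and haem genes 8 fell (4 without the cell, 5 scaled by library size alone) and Hp rose. Fth1, the ferritin heavy chain, was at 10369.5 and 13559.7 against 27789 and 27498 CPM (-1.22 ± 0.16), and the iron exporter gene Slc40a1 had 1 monocyte UMI against 363 (ratio 0.0459, 0.0012 to 0.26; call lost in 2 settings). Of 11 class II accessory genes 7 were lower (6 without the cell; median -1.59): H2-DMb1, a peptide exchange factor, was at 133 and 217 against 1351 and 1439.6 CPM (-3.02 ± 0.18), and H2-DMa and the maturation marker gene Cd83 differed by -1.77 ± 0.15 and -1.59 ± 0.15. H2-DM genes share the regulator CIITA with the M genes that chose the cells, so that their fall is no independent finding. Of 17 class I genes 1 rose and 2 fell (1 and 1 without the cell or scaled by library size alone; median 0.09).

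Of 21 chemokine genes in the files 10 were tested, of which 9 fell in monocytes and 1 rose with or without the cell (median -3.30). The shares over all genes tested were 7.72% higher and 9.03% lower (5.86% and 5.88% without the cell). Cxcl1, which draws neutrophils, was at 165 and 139 CPM in monocytes and 1844 and 1646 CPM in resident macrophages (-3.52 ± 0.17) and Cxcl2 at 3066 and 2404 against 10106 and 8998 CPM (-1.81 ± 0.15). Cxcl16, a membrane-bound attractant of lymphocytes, was at 104 and 189.8 against 1618 and 1464 CPM (-3.41 ± 0.21). Ccl4 was at 1258 and 800.0 against 6158 and 5695 CPM (-2.56 ± 0.16), and Ccl3 differed by -1.16 ± 0.14. The exception was Ccl9, at 1704 and 1620.4 CPM in monocytes and 349 and 489 CPM in resident macrophages (2.00 ± 0.16), opposite in direction to the other 9 tested. Of 16 cytokine genes 7 were lower and 1 higher (5 and 1 without the cell). Il10, the regulatory cytokine of gut macrophages, was at 8.04 and 27.1 against 141 and 295 CPM (-3.64 ± 0.32), Tnf at 84.4 and 88.1 against 293 and 255 CPM (-1.66 ± 0.22; call lost in 1 setting), and the growth factor gene Igf1 had 2 monocyte UMIs against 731 (ratio 0.0456, 0.0055 to 0.17). Il1b differed by -0.64 ± 0.16 at 5593 and 9536 against 11043 and 11667 CPM, a call lost in 8 settings. Osm, a cytokine that acts on stroma, was higher in monocytes, at 816 and 997 against 351 and 342 CPM (1.38 ± 0.16; call lost in 1 setting). Of 24 cytokine receptors 4 rose and 8 fell (2 and 6 without the cell, 5 and 6 scaled by library size alone): Il17ra was at 145 and 132 against 25.8 and 23.1 CPM (2.50 ± 0.32), and the type I receptor gene for transforming growth factor beta, Tgfbr1, at 56.2 and 40.7 against 286 and 266 CPM (-2.52 ± 0.25). The decoy receptor gene Il1r2 was at 72.3 and 108 against 453 and 329.8 CPM (-2.08 ± 0.24). Of 6 Fc receptor genes 3 fell (2 without the cell, 1 scaled by library size alone), among them Fcgr4, at 28.1 and 78.0 against 328 and 439.7 CPM (-2.89 ± 0.25).

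Of 46 transcription factor genes 9 rose and 12 fell (7 and 8 without the cell, 9 and 8 scaled by library size alone; median -0.25). Of all genes tested 7.72% rose and 9.03% fell (5.86% and 5.88% without the cell). Beside Irf7, Klf13 rose by 1.51 ± 0.16 and the nuclear receptor gene Nr4a1, needed by patrolling monocytes, by 0.87 ± 0.15, at 1101 and 997 against 579.8 and 565 CPM. Id2 differed by -1.64 ± 0.18 and the stress factor gene Atf3 by -1.12 ± 0.15. Immediate-early and stress genes, which cell isolation is known to induce, were lower in monocytes for 13 of 32 and higher for 2 (11 and 1 without the cell, 8 and 2 scaled by library size alone; median -0.62): Atf3 was at 1117 and 881 against 2143 and 2183 CPM, Fos at 4255 and 4332 against 7073 and 7439 CPM (-0.76 ± 0.14; call lost in 2 settings) and Hspa5, a chaperone of the endoplasmic reticulum, at 1302 and 1292 against 3379 and 3296 CPM (-1.36 ± 0.14). The part of isolation in these differences was not tested.

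Of 17 glycolysis genes 6 rose and 2 fell (5 and 1 without the cell, 6 and 1 scaled by library size alone; median 0.57), with Pkm at 1004 and 837 CPM in monocytes and 362 and 291 CPM in resident macrophages (1.5 ± 0.16), Eno1 at 209 and 108 against 51.3 and 28.5 CPM (1.98 ± 0.28), and Pfkp higher by 1.79 ± 0.32. Of 25 lipid handling genes 2 rose and 4 fell with or without the cell. Of 66 cytosolic ribosomal protein genes 14 rose (11 without the cell) and none fell (median 0.39), which is 21.2% (16.7% without the cell) beside 7.72% of all genes tested (5.86%), and ribosomal protein transcripts took 7.65% and 7.14% of monocyte UMIs against 4.70% and 4.42% of resident UMIs. Of 73 nuclear genes for respiratory complexes and ATP synthase 10 rose (7 without the cell) and none fell (median 0.34), which is 13.7% (9.59% without the cell) beside the same shares of all genes. Of 10 mitochondrially encoded genes 1 fell (0 without the cell) and none rose (median -0.34). Scaling by library size alone moved the median of all genes tested from -0.03 to 0.15, and gave 23 ribosomal and 18 respiratory chain genes higher and no mitochondrially encoded gene called, so that these counts and medians are to be read against that shift. Of 29 cell cycle genes in the files 9 passed the filter, 1 of which, Tubb5, fell. The falls in this paragraph stand beside 9.03% of all genes tested that fell (5.88% without the cell).

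Markers of other cell types were counted in both classes. Epithelial markers gave 1 UMI in the monocytes of each mouse with 10 of 11 markers at 0, and 16.5 and 50.1 UMIs per 1000000 in resident macrophages. T and NK cell markers gave 4.36 and 21.3 UMIs per 1000000 in monocytes and 6.38 and 11.8 in resident macrophages, and stromal and endothelial markers 4.36 and 7.10 against 37.3 and 67.3. Dendritic cell markers were at 104.5 and 32.0 UMIs per 1000000 in monocytes and 74.6 and 85.3 in resident macrophages, and the eosinophil marker Siglecf at 0 and 0 against 2.69 and 2.70. The 3 neutrophil markers in the files (Csf3r, Mmp8 and S100a8) were at 196 and 103 UMIs per 1000000 in monocytes against 14.4 and 21.1, and monocytes also express these genes. Csf3r was called higher in monocytes, a call lost in 8 settings, among them the fit without the immunoglobulin-rich cell. B and plasma cell markers were at 536 and 27916 UMIs per 1000000 in monocytes and 599 and 748 in resident macrophages, the high value being that of the immunoglobulin-rich cell. Jchain, called higher in monocytes with a log2 difference of 3.18, was at -0.17 without that cell (call lost in 9 settings). In the cells of neither class these markers were at 27365 and 19826 UMIs per 1000000, and 5 and 8 of those cells had at least 100 Jchain UMIs. Mitochondrial transcripts were at a median of 0.916% and 0.875% of the UMIs of a monocyte and 1.08% and 0.974% of those of a resident macrophage.

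Cells of neither class comprised 72 cells with C of at least 120 and a Ly6c2 UMI, 34 cells with P of at least 50 and M of at least 200, and 381 cells under both thresholds, 311 of which had M of at least 200. Of 680 called genes with a log2 difference of at least 1 in either direction, which were chosen for lying apart in both classes, 586 had a level between the classes in both mice, 227 of 272 higher genes and 359 of 408 lower ones. The sums of the cells of neither class were scaled so that the median gene tested matched the mean of the class sums. That scaling itself sets the centre of the genes between the classes. These cells are also a remainder of mixed kinds, so a pooled level between the classes does not show single cells lying between them. Positions were taken on the log2 of CPM plus 1, from 0 at the resident level to 1 at the monocyte level. The median position of the cells of neither class was 0.353 and 0.302 for genes higher in monocytes and 0.224 and 0.20 for genes lower in them. On this scale they lay nearer to the residents in both mice. Where a gene had no monocyte UMI, as 37 of all lower genes had none, the added 1 sets the monocyte end. Without the cells of at least 100 Jchain UMIs, left out after their values were seen, 582 genes lay between and the positions were 0.36 and 0.311 for higher genes and 0.22 and 0.194 for lower ones. Dnase1l3 was at 763 and 1467 CPM there and Hp at 92.5 and 38.9 CPM. A few genes exceeded both classes. Retnla, a secreted protein of alternatively activated macrophages, was at 271 and 606 CPM in cells of neither class against 8.04 and 23.7 CPM in monocytes and 78.6 and 173 CPM in resident macrophages. Cd209a, a lectin of antigen-presenting cells, was at 135 and 139 CPM there against 40.2 and 13.6 CPM in monocytes and 17.9 and 17.5 CPM in resident macrophages.

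The same gates in HFD mice, whose cells took no part in the comparison on chow, gave 315 and 387 monocytes (32.6% and 25% of the cells of HFD 1 and HFD 3) and 210 and 209 resident macrophages. Of 4714 genes tested there, 1003 (21.3%) differed, 503 higher (10.7%) and 500 lower (10.6%). Of the 390 genes higher in monocytes on chow, 382 had the same sign on HFD and 247 passed the test, which is 63.3% of the chow list and 49.1% of the HFD list. Of the 456 lower genes 334 could be tested on HFD, 325 had the same sign and 274 passed, 60.1% of the chow list and 54.8% of the HFD list. A gene in each direction passed with the opposite sign. Resident identity was lower in HFD monocytes for 22 of 27 genes tested and higher for 1, blood monocyte identity higher for 23 of 25 and lower for 1, the type I interferon response higher for 20 of 32 and lower for 1, and chemokines lower for 11 of 13 and higher for 1. Ribosomal protein genes were higher for 1 and lower for 2 of 67 on HFD (median -0.02), and respiratory chain genes higher for 0 and lower for 4 of 74 (median -0.09). The difference of these medians between diets was not tested as such.

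The dependence of the class difference on diet was tested gene by gene in a joint fit of the 8 sums of both diets, so that a gap given here is the term of that fit and not the exact difference of the values fitted within each diet. It passed for 17 of 4982 genes (0.341%), 13 with a more positive monocyte-minus-resident difference on chow and 4 with a more negative one. Without the immunoglobulin-rich cell 25 passed, among them all 17. Hp was higher in monocytes by 8.01 on chow and 4.56 on HFD (log2), a gap of 3.31 ± 0.29 (SE, adjusted p = 2.2e-05), and Ifitm6 by 6.92 and 4.46 (gap 2.33 ± 0.27). Mcemp1, Irf7 and Clec4e showed the same order, with gaps of 2.89 ± 0.31, 2.35 ± 0.31 and 2.09 ± 0.28. The Fcgr4 difference was -2.89 on chow and -0.73 on HFD (gap -2.26 ± 0.31). Hp was at 1509 and 886.1 CPM in the monocytes of HFD 1 and HFD 3 and at 60.4 and 39.8 CPM in their resident macrophages, and Ifitm6 at 738.2 and 794.5 against 32.8 and 36.5 CPM. For both genes the resident level was thus higher in each HFD mouse than in either chow mouse. Ly6i, a Ly6 family gene, was at 223.4 and 302.3 CPM in HFD monocytes and 224.5 and 227.7 CPM in HFD resident macrophages. Plac8 with Chil3, which the gate for monocytes used, reached 4.57% and 4.40% of the monocyte level in the resident macrophages of HFD 1 and HFD 3, above the 0.432% and 0.754% on chow, and the part of free monocyte RNA in the diet differences was not tested. The levels given here for HFD mice were chosen after their values were seen. In edgeR's quasi-likelihood test no gene passed without HFD 1, with 406 at an unadjusted p under 0.05, whereas 46 passed without HFD 3, 36 without Chow 9 and 45 without Chow 11. The gaps of the 17 genes kept their sign without HFD 1, at 0.904 to 1.21 times their size with all mice. The prior degrees of freedom of the fit fell from 13.24 to 5.37 there, and were infinite without HFD 3, Chow 9 or Chow 11. With an infinite value every gene is given the spread pooled over genes, so that the numbers passing cannot be compared between these fits.

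**Figure D4:**
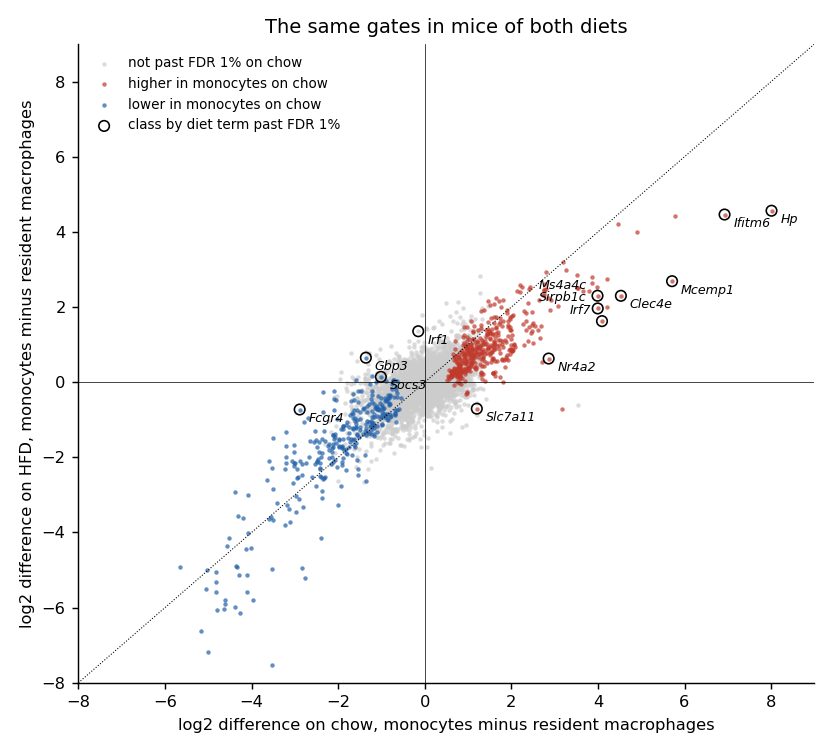
Log2 difference between monocytes and resident macrophages on chow (horizontal axis) and on HFD (vertical axis) for 4333 genes with more than 3 monocyte UMIs on chow that were tested on both diets; circles mark 13 of the 17 genes whose difference depended on diet. Hp lies at 8.01 on chow and 4.56 on HFD, to the right of the line of equal difference.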

How the data were processed

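Per the labels and the methods of the study, the authors made the deposited table of UMI counts per gene and cell with kallisto 0.46.0 and bustools 0.39.2 (submitters' processing notes, which name mm10) from 10x 3′ v2 libraries. It holds 11820 genes and 5420 cells, already filtered by the authors, and the values are counts that were not normalized. Cells were classed by the stated gates, and counts were summed per mouse and class (229568 to 6672760 UMIs). Genes above 1 CPM in at least 2 of 4 sums and detected by a UMI in 5% or more of all classed cells were fitted in edgeR 4.0.16 (R 4.3.3; TMM, quasi-likelihood test, mouse and class as terms, 1 residual degree of freedom, Benjamini-Hochberg, 1%), as for HFD and for class by diet over 8 sums. The block is the mouse, which gives both classes. SE is the absolute log2 difference divided by the square root of F. The script was tested on simulated data. Members and gene lists were chosen with earlier results of these data known. Named genes were the 15 largest differences in each direction among called genes (hence those past the detection filter) with at least 100 CPM in both mice, cell type markers, up to 6 called and 3 uncalled members of each list by level, the 8 smallest p-values in each direction by diet, and the 8 genes highest in neither class. Some genes that this rule names are not reported here. Doublets were marked with scanpy 1.11.5 and kept. GENCODE M21 (GRCm38) matched 11819 genes. Alternatives covered scaling, filters, tools, gates and mice left out; the either-class filter, an earlier quasi-likelihood form and the removal of the immunoglobulin-rich cell were added after the data were seen. Intervals cover counting error only.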

Additional observations from a re-analysis of the deposited data

Results flagged for a closer look

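For 13 named genes the difference between monocytes and resident macrophages itself differed between diets (edgeR quasi-likelihood test of the class by diet term, Benjamini-Hochberg adjusted p under 0.01). The values are the class by diet term of the joint fit on the log2 scale, coded as chow minus HFD. It was more positive on chow for Ly6i by 4.68, for F10, which encodes coagulation factor X, by 4.64, for Hp by 3.31, for Mcemp1 by 2.89, for Irf7 by 2.35, for Ifitm6 by 2.33, for Clec4e by 2.09, for Sirpb1c by 1.91 and for Ms4a4c by 1.57. The difference was more negative on chow for Fcgr4, by -2.26, for the guanylate-binding protein gene Gbp3, by -2.13, for the transcription factor gene Irf1, by -1.62, and for the cytokine signalling suppressor gene Socs3, by -1.27. Irf1 was at 84.4 and 125 CPM in monocytes and 90.8 and 143 CPM in resident macrophages on chow, and at 483 and 528.5 against 210 and 186 CPM on HFD. Gbp3 was at 64.3 and 74.6 against 152 and 206 CPM on chow, and at 398 and 489 against 270.5 and 292 CPM on HFD. Gbp3 and Socs3 were called lower in monocytes in the comparison on chow, calls lost in 2 settings for Gbp3 and in 1 for Socs3. F10 was at 141 and 146 CPM in chow monocytes and 1.44 and 2.07 CPM in chow resident macrophages. In HFD 1 and HFD 3 F10 was at 231 and 120 CPM in monocytes and 88.0 and 39.8 CPM in resident macrophages. The HFD levels in this paragraph were chosen after their values were seen. The median P of resident macrophages, a value of the gating genes, was 0 and 0 on chow and 6.81 and 7.13 on HFD, and its part in the differences was not tested. Without HFD 1 none of these passed, with the same signs and 0.904 to 1.21 times the size over all 17 genes called and prior degrees of freedom of 5.37 against 13.24.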

How the results depend on the processing

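On chow the calls were 846 (390 higher, 456 lower). With no filter on low counts 0 passed in either direction by edgeR (2248 of 11758 at an unadjusted p under 0.05; prior degrees of freedom 3.03 against 18.57), with DESeq2 380 (191 and 189), with stricter gates 387 (199 and 188), with library size alone 274 lower, and without the immunoglobulin-rich cell 297 lower. With no replicate block, mouse left out of the fit, 491 passed (211 and 280). Leaving out each chow mouse gave 596 to 683 calls, 290 to 361 higher and 306 to 322 lower, the lone mouse being assumed to vary like the HFD mice. Other settings stayed within 1.5 times, from 593 to 1147. Jchain reversed, to -0.20 with stricter gates, -0.16 without cells that held markers of other types and -0.17 without the immunoglobulin-rich cell; no other named gene reversed. On HFD 333 passed with no filter (170 and 163), and 778 were higher with library size alone. Class by diet gave 0 in each direction with no filter (734 at an unadjusted p under 0.05), 31 with library size alone (25 more positive on chow), 53 with the likelihood-ratio test (35 and 18), 21 more positive on chow without the immunoglobulin-rich cell, and 0 to 46 with a mouse left out (0 to 33 and 0 to 17). The causes were not tested. Stricter gates left 18 and 4 HFD resident cells, too few to fit.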
